A study of Mus musculus with 20 samples.

Results

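A group of 10 genes of natural killer (NK) cells and of cytotoxic granules was followed in bone marrow and kidney of mice given oxaliplatin, a platinum anticancer drug. They are Ncr1, Klrb1c, Klrb1f, Klrd1, Prf1, Gzma, Gzmb, Nkg7, Eomes and Tbx21, and they were taken by symbol from the raw count tables of both tissues, where all 10 had 1 row among the 55486 genes kept. Bulk RNA was sequenced from 5 mice per tissue and treatment, 20 libraries in all. C57BL/6 mice, 10 weeks old at the start, received intraperitoneal oxaliplatin at 10 mg/kg in 5% dextrose, or the 5% dextrose vehicle alone, over 8 weeks. Marrow was spun out of the hind leg bones when 6 days had passed since the final injection. Library totals ran from 31062858 to 39293176 counts in vehicle marrow, from 30660153 to 41140527 in oxaliplatin marrow, from 24393007 to 28304953 in vehicle kidney and from 26314983 to 30925430 in oxaliplatin kidney. The sources name no engineered allele and no cell sorting, so that every value is a level in the whole tissue. The methods name mice of both sexes and the labels give none, while the Y-linked gene Ddx3y stood at 26.7 CPM or more in every marrow library and Xist at 2.88 CPM or less.

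NK cells are innate lymphocytes that kill infected or transformed cells without prior priming. Their decisions rest on a balance of activating and inhibitory receptors, many of them lectin-like proteins coded side by side in the NK gene complex of mouse chromosome 6. Killing is carried out by granules that hold the pore-forming protein perforin and the serine proteases called granzymes. The T-box factors T-bet and EOMES direct the development and maturation of these cells, which in the mouse takes place largely in the bone marrow. Several of the 10 genes are also used by cytotoxic T cells and by other innate lymphoid cells.

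Levels were expressed as CPM, a library's counts scaled to a common total, with further scaling by the trimmed mean of M values (TMM). One library stood apart. Bone marrow oxaliplatin mouse 3 was the lowest of its group for 8 of the 10 genes and the highest for Nkg7 and Eomes. Its level of Ptprc, which codes for the pan-leukocyte surface protein CD45, was 163 CPM, against 343 to 619 CPM in the other oxaliplatin mice and 534 to 709.9 CPM in vehicle mice. Results are therefore given with and without this mouse where its removal matters.

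In bone marrow, Ncr1, Klrb1f and Eomes were lower after oxaliplatin and Gzmb was higher. The means of Prf1 and Nkg7 lay near those of vehicle, while single treated mice lay above and below the vehicle range. Of the 10 genes, 4 passed an adjusted p of 0.05 (edgeR quasi-likelihood test, Benjamini-Hochberg adjustment over 22363 genes), 3 lower and 1 higher. Across all genes tested in marrow 33.1% passed, 16.8% lower and 16.3% higher, so that 4 of 10 is near the background. The groups did not overlap for 3 of the 10 genes, all lower, against 24.9% of all genes and 13.5% lower. The median log2 fold change of the 10 genes was -0.48, beside -0.04 over all genes tested. The 4 genes past the test were the same with DESeq2, and each of the 4 also exceeded a 1.5-fold change, as did 23.3% of all genes. In bulk tissue, fewer cells of a type and less RNA per cell cannot be told apart.

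**Figure D1:**
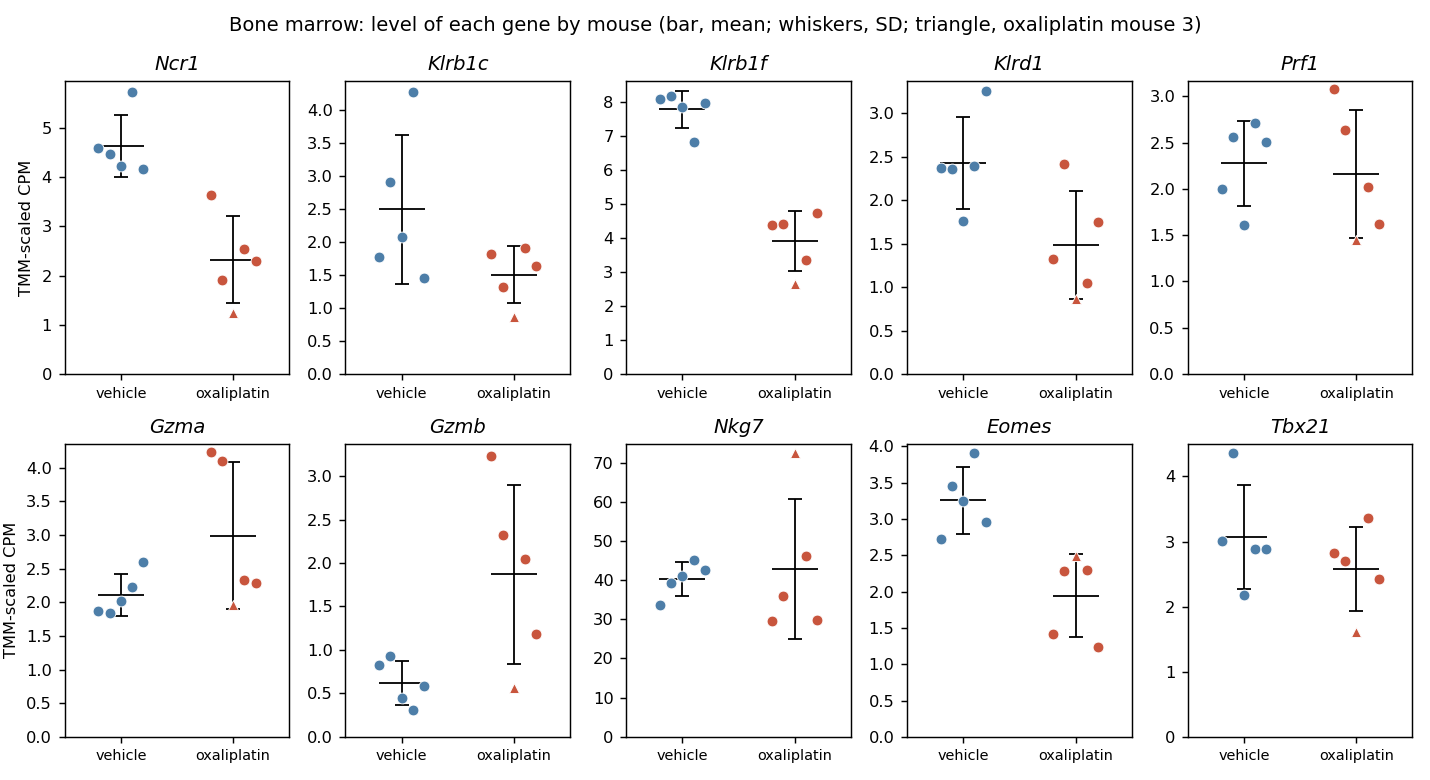
TMM-scaled CPM of each of the 10 genes in bone marrow, 1 panel per gene, with 5 vehicle mice (blue) and 5 oxaliplatin mice (red), the mean as a bar and the SD as whiskers. Ncr1, Klrb1f and Eomes separate the groups without overlap, and the triangle marks oxaliplatin mouse 3, which holds the highest Nkg7 value of 72.4 CPM and the lowest Klrb1f value of 2.63 CPM.

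The 250 bases upstream of the RefSeq start (build GRCm38.p6) are shown for the 4 genes that passed, since 3 of them fell and 1 rose. Capitals mark matches, on either strand, to 3 core motifs: TGTGGT for RUNX factors, AGGAAG for ETS factors and AGGTGT for T-box factors. The first, second and last of these letter strings occur in 14.2%, 29.2% and 12.0% of such windows over 27025 genes, and none of the 3 contains another. The RefSeq starts of Eomes and Gzmb lie 23 and 74 bases upstream of the GENCODE gene starts, and of 2 RefSeq entries for Ncr1 the one nearest the GENCODE start is shown, so that the counts of matches depend on the window.
Ncr1, chr7:4337474-4337723, plus strand: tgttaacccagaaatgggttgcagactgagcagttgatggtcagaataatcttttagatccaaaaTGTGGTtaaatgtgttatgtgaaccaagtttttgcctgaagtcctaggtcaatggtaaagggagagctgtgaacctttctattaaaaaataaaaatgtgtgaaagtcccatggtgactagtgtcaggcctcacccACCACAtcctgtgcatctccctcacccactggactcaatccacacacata
Klrb1f, chr6:129045651-129045900, plus strand: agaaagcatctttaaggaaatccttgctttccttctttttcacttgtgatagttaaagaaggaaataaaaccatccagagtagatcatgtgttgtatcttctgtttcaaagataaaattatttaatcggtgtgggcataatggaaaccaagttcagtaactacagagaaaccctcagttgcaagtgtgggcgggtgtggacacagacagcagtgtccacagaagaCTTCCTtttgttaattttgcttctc
Eomes, chr9:118477939-118478188, plus strand: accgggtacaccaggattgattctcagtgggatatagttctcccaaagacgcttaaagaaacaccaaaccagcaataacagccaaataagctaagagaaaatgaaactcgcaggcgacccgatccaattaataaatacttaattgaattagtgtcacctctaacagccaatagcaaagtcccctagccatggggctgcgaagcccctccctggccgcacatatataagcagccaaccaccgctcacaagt
Gzmb, chr14:56262335-56262584, minus strand: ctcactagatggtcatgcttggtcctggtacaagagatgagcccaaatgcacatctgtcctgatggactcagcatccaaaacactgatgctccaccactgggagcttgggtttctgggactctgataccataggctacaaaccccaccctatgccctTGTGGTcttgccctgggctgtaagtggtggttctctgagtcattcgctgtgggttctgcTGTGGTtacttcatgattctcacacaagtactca
Ncr1, which fell, and Gzmb, which rose, each held 2 RUNX matches, Klrb1f held 1 ETS match, and Eomes held none of the 3 strings. A match of letters is a description and not a site at which a factor was measured.

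Ncr1 codes for NKp46, an activating receptor that marks NK cells in the mouse. The 5 vehicle marrows stood at 4.59, 4.48, 4.22, 5.73 and 4.16 CPM. The oxaliplatin marrows stood at 3.63, 1.91, 1.24, 2.54 and 2.29 CPM. All 5 treated mice lay below every vehicle mouse. Mean Ncr1 was 4.64 ± 0.636 CPM (SD, n = 5) in vehicle and 2.32 ± 0.881 CPM (SD, n = 5) in oxaliplatin marrow, a 2.00-fold drop (log2 fold change -0.999, SE 0.26, edgeR adjusted p = 0.0086). Without oxaliplatin mouse 3 the log2 fold change was -0.84.

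Klrb1f codes for NKR-P1F, a lectin-like receptor of the NKR-P1 family. Its vehicle values were 8.07, 8.18, 7.85, 6.81 and 7.96 CPM and its oxaliplatin values 4.38, 4.42, 2.63, 3.36 and 4.74 CPM. The gap between the groups was wide, since the highest treated mouse lay below the lowest vehicle mouse by more than either group's SD. The mean was 7.77 ± 0.551 CPM (SD, n = 5) against 3.91 ± 0.881 CPM (SD, n = 5), a 1.99-fold drop (log2 fold change -0.99, SE 0.18, edgeR adjusted p = 7.9e-04). This was the lowest adjusted p of the 10 genes, and the log2 fold change was -0.88 without oxaliplatin mouse 3. Of the exon model of Klrb1f, no stretch of 50 bases was shared with another gene, but it overlaps the antisense model Gm44000, which held 29.1 counts on average in marrow, so that reads of the pair cannot be told apart without strand.

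Klrb1c codes for NK1.1, the antigen by which NK cells of C57BL/6 mice are usually recognised. It stood at 1.77, 2.91, 2.08, 4.28 and 1.46 CPM in vehicle and at 1.81, 1.32, 0.86, 1.91 and 1.64 CPM in oxaliplatin marrow. The groups overlapped, mostly through the low vehicle mice 1 and 5. The log2 fold change of -0.73 (95% interval -1.42 to -0.03) did not pass (edgeR adjusted p = 0.102). Of its 50-base stretches, 17.0% also occur in other genes, so that its counts are uncertain. It also overlaps the protein-coding model Gm44511 on the same strand, which held 0 counts in marrow, and reads within that overlap would not be counted as unambiguous.

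Klrd1 codes for CD94, the partner that NKG2A and NKG2C need at the cell surface. Vehicle marrows held 2.37, 2.36, 1.76, 2.39 and 3.25 CPM and oxaliplatin marrows 1.33, 2.41, 0.86, 1.05 and 1.75 CPM. Oxaliplatin mouse 2 lay among the vehicle mice and the other 4 lay below all of them. The log2 fold change was -0.72 (95% interval -1.35 to -0.09, edgeR adjusted p = 0.077). Klrd1 passed in only 2 of 20 settings, with an edgeR or DESeq2 adjusted p of up to 0.182 over them all. The 2 were without oxaliplatin mouse 2 (edgeR adjusted p = 0.021) and with Y-linked expression as a covariate (edgeR adjusted p = 0.041).

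Prf1 codes for perforin. It measured 1.99, 2.56, 1.61, 2.71 and 2.50 CPM in vehicle and 3.08, 2.63, 1.44, 2.03 and 1.62 CPM in oxaliplatin marrow. Treated mice lay both above and below the vehicle range. The log2 fold change was -0.08 with a 95% interval of -0.63 to 0.48 (edgeR adjusted p = 0.849), and its sign turned to 0.04 without oxaliplatin mouse 3 and to 0.07 with scaling to library size alone.

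Gzma codes for granzyme A. Its vehicle values of 1.87, 1.83, 2.02, 2.22 and 2.60 CPM were close together. Oxaliplatin mice 1 and 2 stood at 4.23 and 4.11 CPM, above them all, while mice 3, 4 and 5 stood at 1.96, 2.34 and 2.29 CPM, within the vehicle range. The log2 fold change of 0.50 (95% interval -0.06 to 1.05) did not pass (edgeR adjusted p = 0.161).

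Gzmb codes for granzyme B, the granule protease that triggers apoptosis of the target cell. Vehicle marrows held 0.82, 0.93, 0.44, 0.31 and 0.58 CPM, from 11 to 32 counts per library. Oxaliplatin marrows held 3.23, 2.32, 0.56, 2.05 and 1.19 CPM, from 24 to 112 counts. The 4 treated mice other than mouse 3 lay above every vehicle mouse. The rise was 3.00-fold (95% interval 1.53 to 5.87, log2 fold change 1.58, SE 0.45, edgeR adjusted p = 0.015), and the log2 fold change was 1.82 without mouse 3. Gzmb was the lowest of the 10 genes per kilobase of exon in vehicle marrow.

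Nkg7 codes for a membrane protein of cytotoxic granules. It measured 33.5, 39.2, 41.1, 45.2 and 42.5 CPM in vehicle and 29.5, 36.0, 72.4, 46.1 and 29.8 CPM in oxaliplatin marrow. Mouse 3 carried the high value, and mice 1 and 5 lay below all vehicle mice. The log2 fold change was 0.09 (95% interval -0.39 to 0.57, edgeR adjusted p = 0.802), and it was -0.19 without mouse 3. Mpo, from the list of neutrophil markers, was also highest in mouse 3, at 2101 CPM. Which marrow cells held the Nkg7 RNA was not tested.

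Eomes and Tbx21 code for the T-box factors EOMES and T-bet. Eomes stood at 2.72, 3.46, 3.25, 3.90 and 2.96 CPM in vehicle and at 1.41, 2.29, 2.49, 2.29 and 1.24 CPM in oxaliplatin marrow, with no overlap. It fell 1.67-fold, from 3.26 ± 0.458 to 1.95 ± 0.575 CPM (SD, n = 5 each, log2 fold change -0.74, SE 0.24, edgeR adjusted p = 0.0277). This call was the least secure of the 4, since it was lost with scaling to library size alone (edgeR adjusted p = 0.071) and without oxaliplatin mouse 1 (0.066), oxaliplatin mouse 5 (0.075), vehicle mouse 2 (0.061), vehicle mouse 3 (0.053) or vehicle mouse 4 (0.063). Tbx21 stood at 3.01, 4.36, 2.17, 2.88 and 2.89 CPM in vehicle and at 2.82, 2.70, 1.61, 3.36 and 2.43 CPM in oxaliplatin marrow. Its groups overlapped widely, and the log2 fold change was -0.25 (95% interval -0.77 to 0.28, edgeR adjusted p = 0.480).

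Levels of different genes were compared as CPM per kilobase of merged exon length. In vehicle marrow Nkg7 led at 44.1 ± 4.77 CPM per kilobase (SD, n = 5), followed by Klrb1f at 3.84 and Ncr1 at 3.01. Gzma (2.10), Klrd1 (1.90), Tbx21 (1.23), Prf1 (0.880), Klrb1c (0.844) and Eomes (0.784) came next, and Gzmb was last at 0.431. Ranges over the 5 mice did not overlap between Nkg7 and Klrb1f, between Ncr1 and Gzma or between Eomes and Gzmb, and the other neighbours in this order overlapped. In oxaliplatin marrow Nkg7 again led at 46.8 ± 19.6 CPM per kilobase, Gzma came second at 2.97, and Gzmb stood at 1.30 in place 5, where all neighbours after Nkg7 overlapped.

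The wider set of NK receptors and adaptors held calls in both directions. Of 26 listed genes, 23 were tested in marrow, 9 were lower, 2 were higher and 12 did not pass, with a median log2 fold change of -0.30. The share that passed was 47.8%, beside 33.1% of all genes, with 39.1% lower beside 16.8% and 8.70% higher beside 16.3%. Klrk1, which codes for the activating receptor NKG2D, fell from 7.57 ± 1.03 to 3.68 ± 0.797 CPM (SD, n = 5 each, log2 fold change -1.04, edgeR adjusted p = 7.4e-04). Its vehicle mice stood at 5.92, 8.03, 7.22, 8.24 and 8.45 CPM and its treated mice at 3.95, 4.58, 2.89, 4.21 and 2.80 CPM, with no overlap. The Ly49 receptor genes Klra4 and Klra1 fell from 0.998 to 0.207 CPM (log2 fold change -2.24, SE 0.43) and from 1.06 to 0.139 CPM (log2 fold change -2.89, SE 0.67). Fcgr3, an Fc receptor gene also used by myeloid cells, rose from 136 to 225 CPM (log2 fold change 0.72, SE 0.17). The other calls were lower for Klre1, Klrc2, Klra7, Klrc1, Klra8 and Klri2 and higher for Klra3, and these were looked up after their values were seen.

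The receptor genes of chromosome 6 were described together by position. Between chr6:128609227-130386874 on GRCm38, a span of 1.78 Mb, lie 17 of the genes listed here with Klr symbols, namely Klrb1c, Klrb1f and Klrd1 and 14 of the listed receptors. Of these, 16 were tested, 10 were lower, 1 was higher and 15 had a negative log2 fold change, with a median of -1.005, beside 16.8% lower, 16.3% higher and a median of -0.04 over all genes tested. The family shares sequence. Of the 50-base stretches of Klra8, 33.1% occur in other genes, as do 31.5% of those of Klra9, 38.6% of those of Klrc1 and 20.7% of those of Klra3, so that single values of these genes are uncertain. Klrk1 and Klrd1 shared none.

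**Figure D2:**
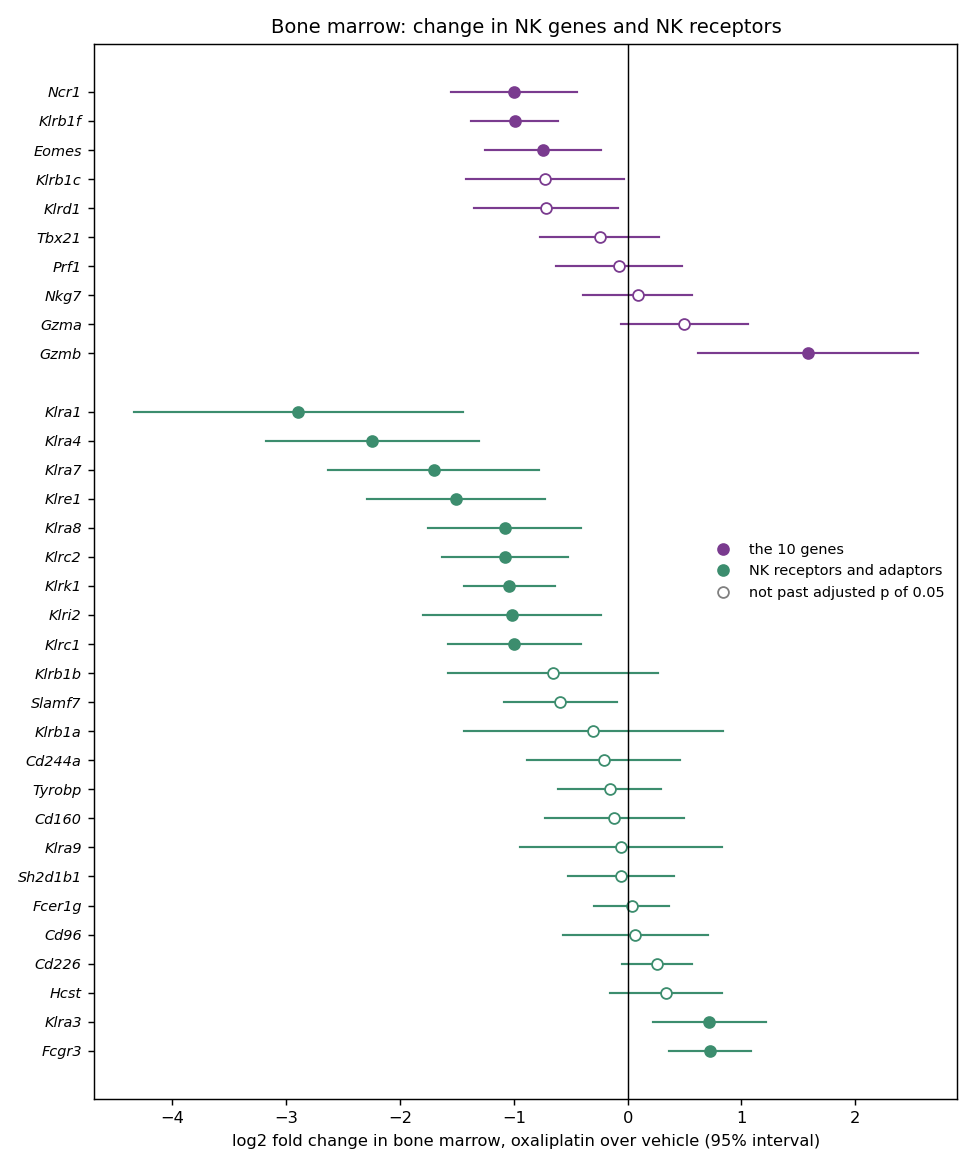
Log2 fold change in bone marrow with its 95% interval for the 10 genes (purple) and for the 23 tested NK receptors and adaptors (green), each ordered from lowest to highest, with filled points past an adjusted p of 0.05. Gzmb at 1.58 stands opposite to Ncr1, Klrb1f and Eomes, and Klra1 at -2.89 is the lowest receptor.

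Granule and killing genes also held calls in both directions. Of 20 listed, 18 were tested, 5 were higher, 2 were lower and 11 did not pass, with a median log2 fold change of 0.08. The share that passed, 38.9%, is near the 33.1% of all genes. Gzmk, the granzyme gene next to Gzma on chromosome 13 at a distance of 70.6 kb, rose from 0.181 ± 0.135 to 0.708 ± 0.241 CPM (SD, n = 5 each, log2 fold change 1.94, SE 0.49, edgeR adjusted p = 0.0079). Its counts were low, at 2 to 14 per vehicle library and 10 to 40 per treated library. Lamp1, a lysosome membrane protein gene of most cells, rose from 319 to 439 CPM, Srgn, which codes for the granule proteoglycan serglycin, from 189 to 243 CPM, and Ctsc, which codes for the protease that activates granzymes, from 104 to 146 CPM. All of these are widely expressed in myeloid cells. Ifng and Gzmc were under the filter on low counts.

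Among 14 transcription factor genes of the NK lineage, 1 was higher, 2 were lower and 11 did not pass. The share that passed, 21.4%, is below the 33.1% of all genes. Ikzf3, which codes for the lymphoid factor Aiolos, fell from 79.2 to 20.4 CPM (log2 fold change -1.95, SE 0.20, edgeR adjusted p = 1.15e-05). Ets1 fell from 225 to 173 CPM (log2 fold change -0.38), and Prdm1, which codes for Blimp-1, rose from 6.44 to 11.3 CPM (log2 fold change 0.81). Ikzf3 is also a gene of B cells, whose markers are given with the other cell types. Of 11 genes for IL-2, IL-12, IL-15 and IL-18 and their receptors, 2 were higher and none lower, namely Il12rb1 (3.02 to 8.19 CPM, log2 fold change 1.44, edgeR adjusted p = 1.51e-04) and Jak3 (52.7 to 72.8 CPM). For this list the share that passed was 18.2%, also below the 33.1% of all genes. Il15, the cytokine that NK cells need to survive, and Il2rb, which codes for its receptor chain, had log2 fold changes of -0.02 and -0.08 and did not pass.

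Of 11 maturation and trafficking genes, 4 passed (36.4%, beside 33.1% of all genes), all of them lower, with a median log2 fold change of -0.37. Cxcr4, the receptor that retains cells in marrow, fell from 270.4 to 139.7 CPM (log2 fold change -0.95). Cd27, which marks less mature NK cells, fell from 9.70 to 5.34 CPM, Cx3cr1 from 22.6 to 14.0 CPM and Spn from 279 to 217 CPM. Cxcr4 and Spn are also genes of many other marrow cells. Of 14 ligand genes that NK receptors read on other cells, 12 were tested, 4 were higher and 2 lower. That is 33.3% higher, beside 16.3% of all genes, and 16.7% lower, beside 16.8%. Nectin2, which codes for a ligand of DNAM-1, rose from 7.63 to 15.8 CPM (log2 fold change 1.05, SE 0.15), Pvr, which codes for another, from 5.11 to 8.52 CPM, and the class I gene H2-K1 from 388 to 547 CPM. H2-T23, which codes for the Qa-1 ligand of CD94 and NKG2A, fell from 126 to 95.3 CPM.

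**Figure D3:**
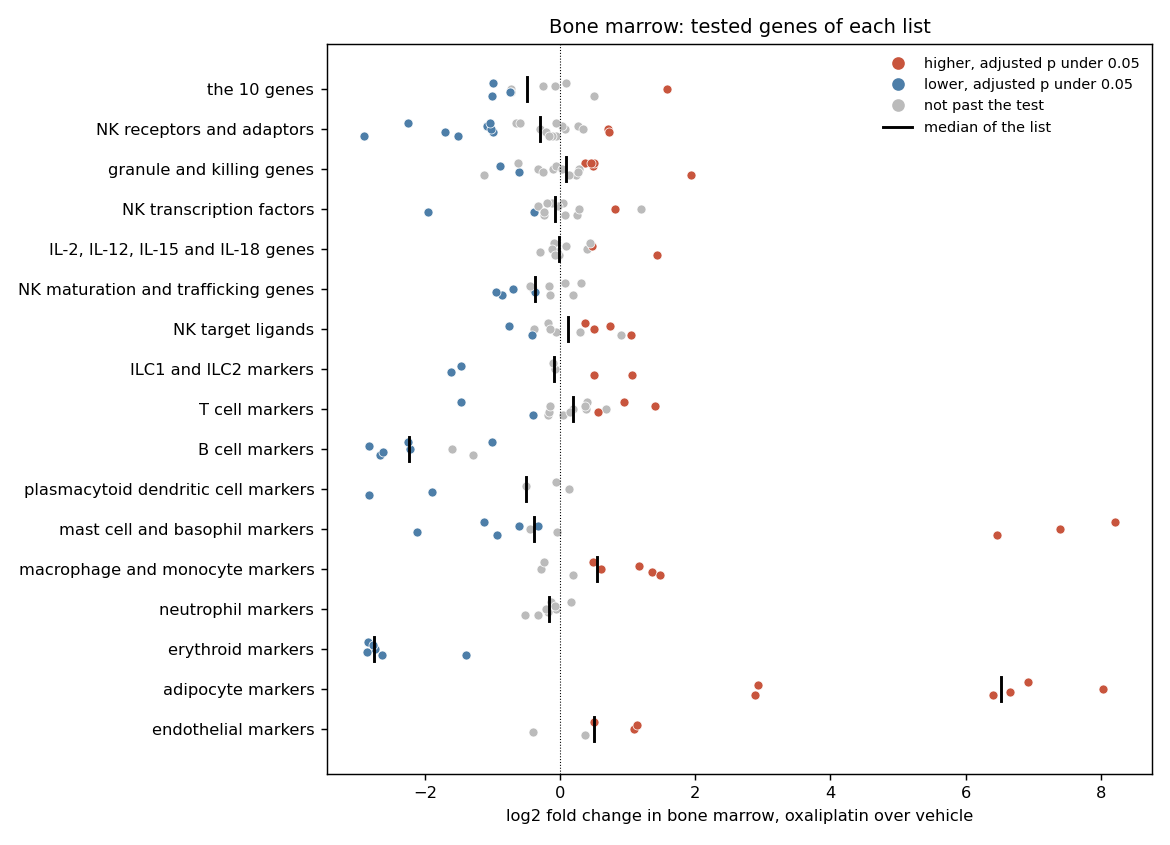
Log2 fold change in bone marrow of each tested gene of each list, with colour for genes past an adjusted p of 0.05 and a black bar at each median. The 10 genes have a median of -0.48, between the B cell markers at -2.23 and the adipocyte markers at 6.53, and the kidney tubule list is left out because only 2 of its genes were tested.

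Markers of the other cell types moved with treatment too, and their part in the results was not tested. The 15 T cell markers summed to between 113 and 152 CPM in vehicle and between 65.3 and 111 CPM in oxaliplatin marrow, with Cd4 the most abundant and none at 0. Cd4 itself fell from 78.6 to 28.5 CPM. The other 14 summed to between 45.9 and 62.7 CPM in vehicle marrow, to between 66.5 and 74.9 CPM in 4 treated mice and to 42.2 CPM in oxaliplatin mouse 3. The median log2 fold change of the 15 was 0.19, and it was positive for 10. Of these 15, 3 were higher (Themis, Cd6 and Cd28), 2 were lower (Cd4 and Lck) and 10 did not pass. The share that passed, 33.3%, is near the 33.1% of all genes. Themis and Cd4 passed in all 20 settings fitted, while Cd6 passed in 13 (edgeR or DESeq2 adjusted p up to 0.089) and Cd28 in 11 (up to 0.093). Cd8a, a marker of cytotoxic T cells, stood at 3.78 to 5.21 CPM in treated and 2.44 to 4.81 CPM in vehicle marrow (log2 fold change 0.15, edgeR adjusted p = 0.614). Among 6 tested ILC markers, Il7r fell from 33.0 to 10.8 CPM, Il1rl1 from 39.8 to 14.4 CPM, and Rora rose from 8.81 to 18.4 CPM and Itga1 from 49.7 to 70.3 CPM. Itga1 passed in 17 of 20 settings and was lost without vehicle mouse 5 or oxaliplatin mouse 1 or 4 (edgeR adjusted p up to 0.055).

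Markers of mast cells and basophils, whose part in the Gzmb result was not tested, moved in both directions. Cma1 held 0, 0, 2, 0 and 0 counts in vehicle and 260, 60, 20, 99 and 45 counts in oxaliplatin marrow. Tpsb2 and Mcpt4 likewise held at most 2 counts in any vehicle library and at least 20 in every treated library. Prss34, of the same list, went the other way. It stood at 69.9, 92.4, 76.5, 85.9 and 81.9 CPM in vehicle marrow. In oxaliplatin marrow it stood at 14.8, 8.59, 15.7, 45.3 and 9.46 CPM. The 10 mast cell and basophil markers together summed to between 301 and 368 CPM in vehicle and between 173 and 253 CPM in treated marrow, led by Hdc, with 3 higher and 5 lower. The share of these markers that passed was 80%, beside 33.1% of all genes. From 1 to 3 of the 10 were at 0 in each vehicle library and none in a treated one.

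Of the remaining marker lists in marrow, 6 of 8 B cell markers were lower (median log2 fold change -2.23), 2 of 5 plasmacytoid dendritic cell markers were lower, 5 of 8 macrophage and monocyte markers were higher, none of 8 neutrophil markers passed, all 6 erythroid markers were lower, all 6 adipocyte markers were higher and 3 of 5 endothelial markers were higher. Over all genes tested in marrow, 16.8% were lower and 16.3% higher. The summed neutrophil markers of oxaliplatin mice 3 and 4 were 7782 and 8793 CPM, against 13938 CPM or more in the other 8 mice. That sum was led by S100a9, and not all genes of the list were low. In oxaliplatin mouse 3 Mpo and Elane were the highest of all mice, at 2101 and 826 CPM. In oxaliplatin mouse 4 Mpo stood at 1807 CPM and Elane at 569 CPM. Vehicle mice held 1545 to 1865 CPM of Mpo and 646 to 724 CPM of Elane. Summed adipocyte markers were 3331 CPM in oxaliplatin mouse 3, the highest of all mice. Oxaliplatin mice 4 and 1 were close to it, at 3300 and 3122 CPM, and mice 2 and 5 stood at 1667 and 627 CPM.

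Mice of 1 group also differed among themselves. After each group's mean was taken from log2 CPM, the median Pearson r over the 45 pairs of the 10 genes was 0.34 across 10 marrow mice, and 29 pairs were positive. The points share libraries and their depth. Without oxaliplatin mouse 3, with the group means taken anew, the median r was 0.12 and 25 pairs were positive. Nkg7 and Eomes each had a negative r in 8 of their 9 pairs, but this rested largely on mouse 3, and without it the count was 5 of 9 for Nkg7 and 4 of 9 for Eomes. With each other they had an r of 0.788 (0.832 without mouse 3). With Klrb1f, Nkg7 had an r of -0.949 (-0.845 without mouse 3) and Eomes one of -0.727 (-0.680 without it). Other high pairs were Prf1 with Gzma (0.806, and 0.731 without mouse 3) and Gzmb with Tbx21 (0.781, and 0.580 without it).

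**Figure D4:**
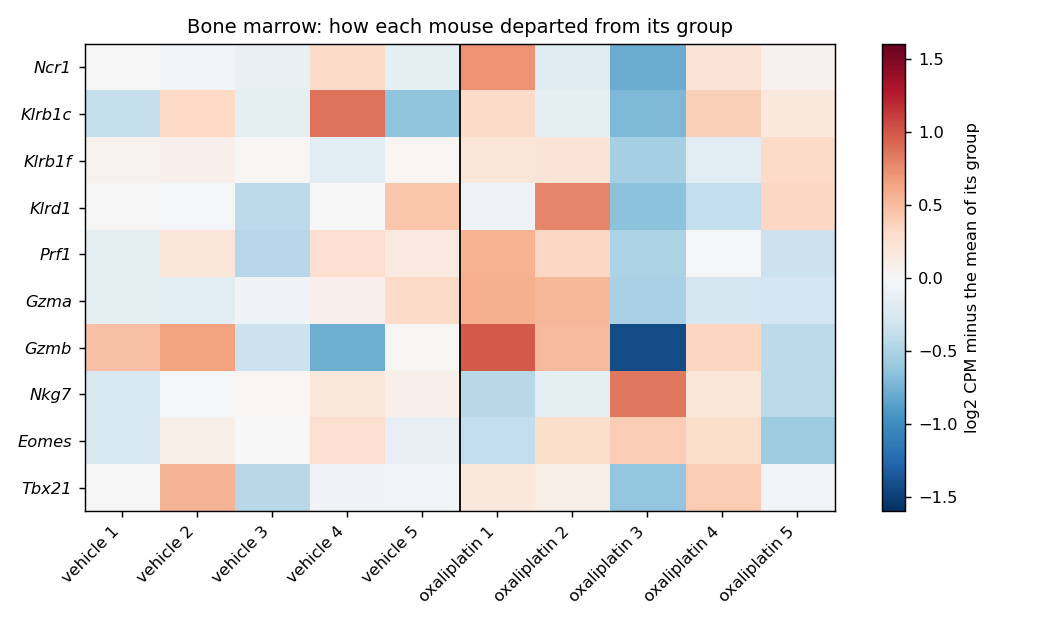
Log2 CPM of the 10 genes in each of 10 marrow mice after subtraction of the mean of its group, red above and blue below that mean. Oxaliplatin mouse 3 is below its group for 8 of the 10 genes and above it for Nkg7 and Eomes.

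Outside the 10 genes, the closest profiles across the 10 mice among 17480 genes of at least 1 CPM belonged to Cd180 (r = 0.985), 6030442K20Rik (0.968), Lbh (0.964), Cd2 (0.961), Kctd12 (0.960), 9330175E14Rik (0.946), Nagk (0.944), Pgap1 (0.941), BC147527 (0.935) and H2-T23 (0.934). The r of Cd180 was 0.959 without oxaliplatin mouse 3 and vehicle mouse 3, the mice farthest from the middle. Cd180, which codes for a receptor of B cells and macrophages, and Cd2, a lymphocyte adhesion molecule gene, were also lower after treatment, with log2 fold changes of -0.59 and -1.42. So were 6030442K20Rik, BC147527 and H2-T23. Nagk was higher (log2 fold change 0.46), and Lbh, Kctd12, 9330175E14Rik and Pgap1 did not pass.

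In kidney the 10 genes were near the limit of detection. None of them passed the filter on low counts that left 19293 genes, of which 29.4% passed the test, 15.0% lower and 14.4% higher. The highest count of any of them in a kidney library was 22, 18 of 100 values were 0 and 39 were 3 or fewer. Their counts summed to 293 over the 5 vehicle kidneys and 269 over the 5 oxaliplatin kidneys. Nkg7 measured 0.421 ± 0.0958 CPM per kilobase (SD, n = 5) in vehicle kidney, against 44.1 in vehicle marrow, where each tissue was scaled by itself. A difference between kidney groups was thus mostly not detectable at this depth.

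**Figure D5:**
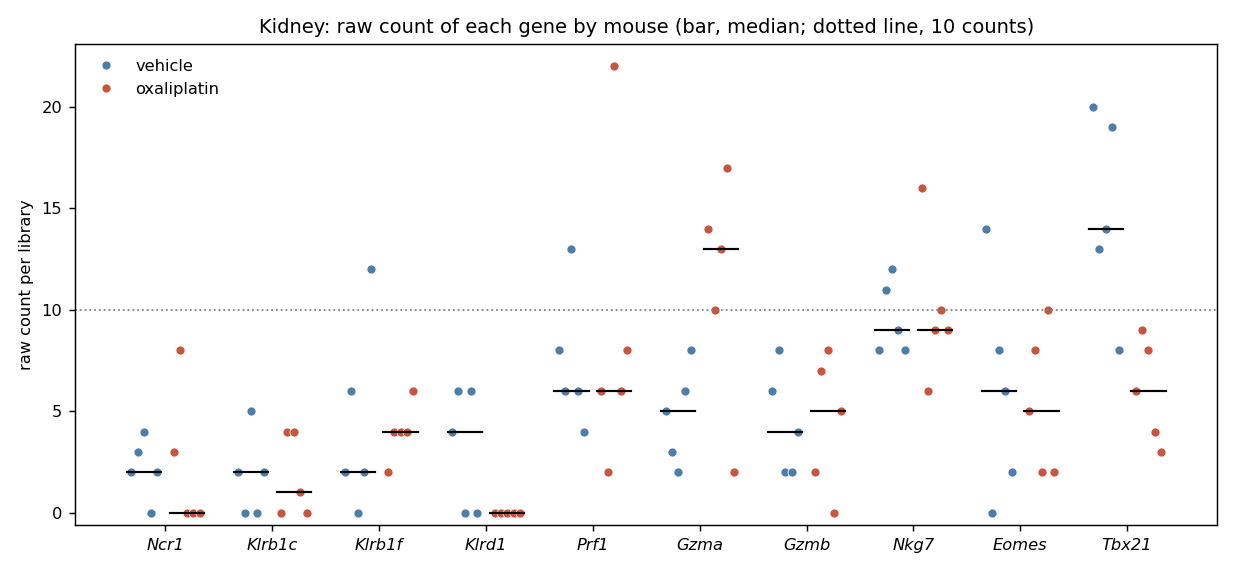
Raw count of each of the 10 genes in 5 vehicle kidneys (blue) and 5 oxaliplatin kidneys (red), with the median as a bar and a dotted line at 10 counts. Tbx21 holds 3 to 9 counts in treated and 8 to 20 in vehicle mice, and Klrd1 is at 0 in all 5 treated mice.

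Tbx21 was counted 20, 13, 14, 19 and 8 times in vehicle and 6, 9, 8, 4 and 3 times in oxaliplatin kidney. As a raw count the vehicle mouse with 8 lay within the treated range, whereas in CPM it stood at 0.324, above the highest treated kidney at 0.303. Without the filter its log2 fold change was -1.49 (SE 0.51, edgeR adjusted p = 0.0283). Klrd1 was counted 4, 6, 0, 6 and 0 times in vehicle and was at 0 in all 5 treated kidneys, where a count of 0 allows up to 3 counts in a library (edgeR adjusted p = 0.0192 without the filter). In the treated kidneys 3 counts are up to 0.108 CPM, but from 71.1% to 75.1% of kidney counts from 1 to 10 were even, and if a read pair gives 2 counts this limit is too low. Gzma was counted 5, 3, 2, 6 and 8 times in vehicle and 14, 10, 13, 17 and 2 times in treated kidney, and its log2 fold change of 1.02 (SE 0.58) did not pass (edgeR adjusted p = 0.263).

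The responses of the tissues were compared in 1 fit over 20 libraries, treated as independent because the labels do not say which kidney and marrow libraries come from the same mouse. The 10 genes entered this fit only through their marrow counts, since none passed the filter in kidney, and none was left to test when at least 10 counts were asked for in every library. Their results are therefore given as values and not as support for a difference between tissues. An adjusted p under 0.05 was reached by 2 of the 10 (edgeR interaction term, adjusted over 24321 genes) and by 30.1% of all genes. For Tbx21 the kidney response minus the marrow response was -1.31 on the log2 scale (SE 0.44, edgeR adjusted p = 0.0287), and for Klrd1 the adjusted p was 0.0183, with no size given because all treated kidneys were at 0. The Tbx21 value passed in 22 of 28 settings. The difference for Gzmb, -1.84 (SE 0.82), did not pass (edgeR adjusted p = 0.0954), although it did without bone marrow oxaliplatin mouse 3 (adjusted p = 0.044). No test in these data shows that the other 7 genes responded alike in the tissues.

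Of the NK receptors and adaptors, 6 of 26 were tested in kidney, 3 were lower and none higher. The share lower was 50% of these 6, beside 15.0% of all kidney genes. Slamf7, a receptor gene of NK and other leukocytes, fell from 1.58 ± 0.336 to 0.471 ± 0.132 CPM (SD, n = 5 each, log2 fold change -1.73, edgeR adjusted p = 2.4e-04). Tyrobp, which codes for the adaptor DAP12 and is abundant in macrophages, fell from 3.57 to 1.74 CPM (log2 fold change -1.04, SE 0.23). In the same kidneys 4 of 8 macrophage and monocyte markers were lower and 1 was higher, and the part of those cells in this result was not tested. Of the 13 granule and killing genes tested there, 4 were higher and 2 lower, led by Rab27a (20.1 to 31.6 CPM) and Ctsc (12.8 to 18.4 CPM). The share that passed was 46.2%, beside 29.4% of all kidney genes.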

How the data were processed

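The authors deposited raw gene counts, 1 table per tissue with a column per mouse. Per their methods, reads were aligned with STAR to Ensembl release 101 and uniquely aligned, unambiguous reads were counted per gene. The submitters' processing notes also list featureCounts and Salmon, and the library chemistry is described in 2 ways. Strand use in counting is not given in the sources used here. Of 55774 table lines, 55486 genes were kept. Among low counts the value 2 was from 2.10 to 3.21 times as frequent as 1, for a reason that was not tested.

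Each tissue was fitted by itself with edgeR 4.0.16 in R 4.3.3: filterByExpr with a minimum count of 10, TMM, a robust quasi-likelihood test of treatment with 5 libraries per group, and Benjamini-Hochberg adjustment over all genes tested. The difference between the tissues' responses was tested as an interaction over 20 libraries. A gene passed at an adjusted p under 0.05. SE is the log2 fold change divided by the root of F. Fits were tested on simulated counts. DESeq2 1.42.0, other scalings and filters, a replicate block, a Y-linked covariate and leaving out each library were tried. Floors and intervals cover counting error or the spread between these mice. Exon lengths and overlaps came from GENCODE M21 (GRCm38), and promoters from RefSeq, which held 9 of the 10 genes.

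The 10 genes and the lists were chosen with earlier results of these data known. Beyond the 10 genes, the rule was to name up to 4 genes per list of smallest adjusted p in marrow and up to 2 in kidney. Only genes that passed were eligible, and several lists are given as counts alone. The 10 genes of most similar profile are also named. Genes singled out beyond this rule, among them Cd8a, Il15, Il2rb, Mpo and Elane, were chosen after their values were seen.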

Additional observations from a re-analysis of the deposited data

Results flagged for a closer look

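In 39 groups of 5 mice with any spread, the 10 genes were screened for a mouse whose gap to its nearest neighbour exceeded 0.71 of the group's range, which chance alone gives in about 1 of 20 groups. Bone marrow vehicle mouse 4 was far above its group for Ncr1 (5.73 CPM, the next at 4.59 CPM) and far below it for Klrb1f (6.81 CPM, the next at 7.85 CPM). Kidney oxaliplatin mouse 3 was far above its group for Prf1, at 0.791 CPM from 22 counts, with the next mouse at 0.240 CPM.

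The term for a difference between the kidney and marrow responses had an adjusted p of 0.0287 for Tbx21 and 0.0183 for Klrd1 (edgeR interaction). Kidney counts were 20 or fewer per library for both, and both entered the fit only through their marrow counts, so that a difference in response is not established.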

How the results depend on the processing

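In bone marrow 4 of the 10 genes passed in the main analysis and 3 to 5 did when a library was left out. Ncr1, Klrb1f and Gzmb passed under all 20 settings fitted, the main one included, and Eomes under 14. Of 55 further list genes tracked in marrow, 7 (Cd28, Cd6, Kdr, Itga1, Ets1, Spn and H2-T23) lost their call in 27 of 1033 refits in all, and none changed direction. Scaling to library size alone moved the median log2 fold change of all marrow genes from -0.04 to 0.11 and the calls from 3650 higher and 3763 lower to 5372 higher and 2709 lower. Under it Prf1 turned to 0.071. Leaving out a library gave -0.24 to 0.043 for Prf1. Over all 20 settings Nkg7 ranged from -0.19 to 0.24. In kidney 2 of the 10 genes passed with no filter beyond 1 count (Klrd1 and Tbx21), because they were then tested. In that setting 5576 of all 37270 genes tested passed. When a kidney library was left out, 0 to 1 of the 10 (Tbx21) passed. All genes past the test in the main kidney analysis numbered 5679, and 2216 with a 1.5-fold change added. Of the differences between tissues, 2 passed in the main analysis and 1 to 3 without a library. With no filter beyond 1 count 1 passed, beside 6417 of all 42350 genes tested. That for Tbx21 was lost without bone marrow vehicle mouse 3, kidney vehicle mouse 1 or 4, or kidney oxaliplatin mouse 4 or 5. A filter of at least 10 counts in every library left none of the 10 genes to test there. When a library was left out the difference ranged from -0.71 to 1.09 for Ncr1, from -0.063 to 1.29 for Klrb1c, from -0.66 to 0.39 for Prf1 and from -0.040 to 0.85 for Eomes, none of which passed. The median correlation over pairs was 0.19 with Spearman's rho and 0.12 to 0.44 without a mouse. Where no cause is given, the cause was not tested.

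Replicate numbers are only names here, since different mice carry them and mice of the same number had correlated deviations of -0.118 to 0.228 in marrow and -0.154 to 0.0754 in kidney, with 1 of 5 vehicle mice best matched by its own number in each tissue. A fit with a replicate block left 4 of the 10 genes past the test in marrow, 0 in kidney and 2 between tissues, moved all calls from 7413 to 6807 in marrow and from 5679 to 4757 in kidney, and turned the tissue difference of Prf1 to -0.074. Counts halved, an alternative chosen after seeing the data, left 4, 0 and 2. In kidney the values of these genes rest on 22 counts or fewer per library.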
